A study of Pagiophloeus tsushimanus with 15 samples.

Results

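The unigenes described here are those of the larval transcriptome of the weevil Pagiophloeus tsushimanus whose protein description names fatty acid and hydrocarbon synthesis or a lipase. They were chosen by words in the description: fatty acid synthase, elongation of very long chain fatty acids, desaturase, fatty acyl-CoA reductase, acyl-CoA synthetase, long-chain-fatty-acid ligase, fatty acid-binding protein, and lipase with phospholipases left out. These words picked 78 of the 34486 assembled unigenes, 48 for synthesis and 30 for lipases. A description gives a similar protein in another species, not a measured function, and 7 of the synthesis unigenes were matched to animals other than beetles.

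RNA was sequenced from whole larval bodies, in 15 libraries that form 5 diet groups of 3: a terpenoid-free diet (untreated), diets holding 10 or 30 mg/g of an additive that the labels call EO, and diets holding 17 or 41 mg/g of D-camphor, a monoterpenoid ketone of plants. The labels give no age, sex or strain, and do not say whether a library is 1 larva or a pool. P-values thus reflect no more than the spread among these libraries, which may be technical. Levels are in TPM, a share of all transcripts that is corrected for length and keeps no read depth, so the depth behind each value is unknown.

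Insects build long fatty acids from acetyl-CoA with fatty acid synthase. Elongases lengthen the chains, desaturases place double bonds, and fatty acyl-CoA reductases turn the activated acid into an alcohol or aldehyde on the way to waxes and the hydrocarbons that waterproof the cuticle, work that insects do largely in the fat body and in cells called oenocytes. Lipases run the other way and free fatty acids from fats, in the gut lumen during digestion and inside cells when stores are used.

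The number of unigenes over 1 TPM ran from 11478 to 13659 per library. Midgut marker unigenes (peritrophins, trypsins, aminopeptidase N and cathepsin L, 83 in number) summed to 60258 to 82214 TPM and muscle markers to 11019 to 16762 TPM, while 0 descriptions named cytochrome P450 4g, the marker listed for oenocytes. Replicate 1 of EO at 10 mg/g, replicate 1 of EO at 30 mg/g and replicate 2 of D-camphor at 41 mg/g stood apart from the other libraries on the first principal component, which held 23.5% of the variance. In these 3 libraries the 53 cuticle protein unigenes summed to 33411, 17555 and 21692 TPM, against 343 to 8124 TPM in the other 12. Fold changes of members whose groups did not overlap were refitted without these libraries, and values that moved by over 1.5 times are given. Other fold changes rest on all libraries unless stated.

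The test took unigenes that averaged 1 TPM or more across the libraries, which admitted 26 synthesis unigenes and 20 lipases, 46 of 78. The other 32 had means of 0.0693 to 0.951 TPM. Among them 23 never reached 1 TPM and 22 were listed at 0 in at least 1 library, and all 7 unigenes matched outside beetles were in this set, with a highest value of 1.55 TPM. Just inside the limit was an ABHD12-like lipase (TRINITY_DN11105_c0_g2, 1.001 TPM), and just outside it a fatty acyl-CoA reductase (TRINITY_DN9229_c0_g1, 0.951 TPM). By role, the test covered 4 of 13 fatty acid synthases, 6 of 6 elongases, 2 of 5 desaturases, 8 of 14 fatty acyl-CoA reductases, 5 of 7 acyl-CoA synthetases and 1 of 3 fatty acid-binding proteins. Among the lipases it covered 9 of 12 of the pancreatic type and 3 of 7 of the gastric or lipase 3 type. It covered 5 of 5 with an ABHD name, 2 of 5 diacylglycerol lipases and a lipase maturation factor 2-like unigene. The last name refers to the folding of lipases and not to a lipase, and the function of this unigene was not measured. Unigenes are pieces of an assembly: 15 of the 78 shared an assembly component with another member, and such pieces may be parts of 1 gene.

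No synthesis or lipase unigene passed the test for a difference between diets. A linear model in limma on log2(TPM + 1), with Benjamini-Hochberg adjustment over all 12510 unigenes admitted and a threshold of 0.05, called 0 of the 46 in each of the 8 comparisons. Over all unigenes it called 0.0719% on EO at 10 mg/g, 0.184% on EO at 30 mg/g, 0.04% on D-camphor at 17 mg/g and 0.016% on D-camphor at 41 mg/g, each against untreated larvae, so 0 of 46 is near that background. An unadjusted p under 0.05 was found for 4, 3, 1 and 7 of the 46 on these diets in the same order. These were 2, 2, 0 and 2 of the 26 synthesis unigenes, and 2, 1, 1 and 5 of the 20 lipases. All unigenes gave 6.31%, 8.8%, 6.24% and 6.24%. Of the 5 lipases on D-camphor at 41 mg/g, 4 were lower than in untreated larvae and 1 was higher. The lowest adjusted p of any of the 46 against untreated larvae was 0.462, on D-camphor at 41 mg/g. All 4 diets were compared with the same 3 untreated libraries, so their values are not independent. In whole larvae fewer cells of a type and less RNA per cell cannot be told apart.

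The 95% interval of the log2 fold change lay within 1 unit of 0 on the log2(TPM + 1) scale for 18 of 26 synthesis unigenes on EO at 10 mg/g, 17 on EO at 30 mg/g, 21 on D-camphor at 17 mg/g and 20 on D-camphor at 41 mg/g. For the lipases the counts were 16, 15, 16 and 15 of 20. This scale understates the change of low unigenes, so for them the interval is not a limit on a 2-fold change in TPM. The median half-width of the interval was 0.57 on the log2 scale for synthesis and 0.40 for lipases.

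**Figure D1:**
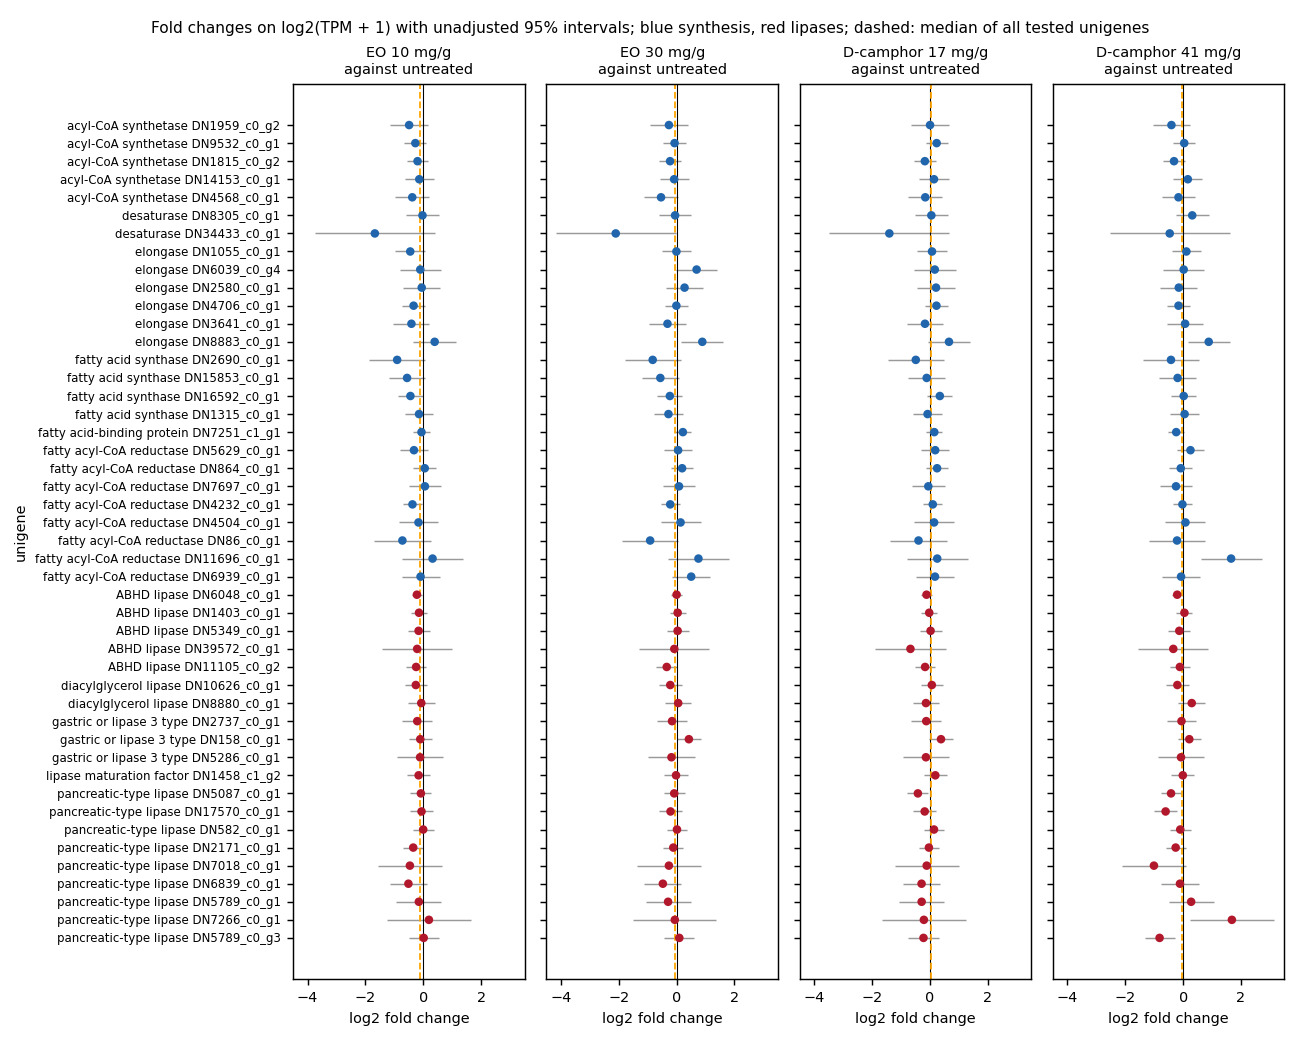
Fold changes of the 46 tested unigenes on each diet against untreated larvae, on the log2(TPM + 1) scale (x axis), with unadjusted 95% intervals as grey bars, synthesis in blue, lipases in red and the median of all tested unigenes as a dashed line. Most points lie near the dashed line, and the widest intervals belong to a desaturase (TRINITY_DN34433_c0_g1) and a pancreatic-type lipase (TRINITY_DN7266_c0_g1).

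Among the fatty acid synthases, the enzyme that assembles the saturated chain, the most abundant unigene (TRINITY_DN2690_c0_g1) stood at 8.44, 29.0 and 15.9 TPM in untreated larvae, against 4.47, 13.3 and 8.30 TPM on EO at 10 mg/g. On EO at 30 mg/g it stood at 5.58, 8.19 and 13.2 TPM, on D-camphor at 17 mg/g at 11.8, 13.5 and 8.37 TPM and on D-camphor at 41 mg/g at 14.98, 8.33 and 12.4 TPM. Untreated replicate 2 was the highest of all 15 libraries, and every diet overlapped the untreated range. Its log2 fold change was -0.91 on EO at 10 mg/g (SE 0.44, limma adjusted p = 0.714). That diet's lowest value, 4.47 TPM, was in replicate 1, among the libraries that stood apart. The part of this library in the fold change was not tested. A second fatty acid synthase unigene (TRINITY_DN15853_c0_g1) was also highest in untreated replicate 2, at 11.8 TPM, with 3.01 to 6.65 TPM elsewhere. The ratio of the first to the second lay between 1.41 and 2.56 in all 15 libraries. Whether these are pieces of 1 gene, share reads or are separate genes that vary together was not tested.

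The third fatty acid synthase (TRINITY_DN16592_c0_g1) was low. It stood at 1.21, 1.45 and 1.84 TPM in untreated larvae, 0.86, 0.65 and 0.98 on EO at 10 mg/g, 1.13, 1.02 and 1.20 on EO at 30 mg/g, 2, 1.72 and 2.85 on D-camphor at 17 mg/g, and 1.86, 2.02 and 0.85 on D-camphor at 41 mg/g. Both EO diets lay below all untreated libraries, while D-camphor at 41 mg/g spanned them. Against untreated larvae its log2 fold change was -0.45 on EO at 10 mg/g (SE 0.20, adjusted p = 0.714) and -0.23 at 30 mg/g (adjusted p = 0.731), the latter -0.14 without untreated replicate 3. With a pseudocount of 0.1 these values were -0.78 and -0.38. Between the mean of both EO diets and the mean of both D-camphor diets it had the lowest adjusted p of all 46 (-0.52, SE 0.14, adjusted p = 0.313), a comparison that called 0.048% of all unigenes and 0 members, with 6 members and 10.6% of all unigenes at an unadjusted p under 0.05.

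The elongases add carbon pairs to long chains. The most abundant (TRINITY_DN1055_c0_g1, AAEL008004-like) stood at 23.7, 24.1 and 26.6 TPM in untreated larvae, against 15.7, 18.0 and 20.1 TPM on EO at 10 mg/g, with no overlap (log2 fold change -0.45, SE 0.24, adjusted p = 0.714; -0.28 with median-of-ratios scaling). On EO at 30 mg/g it was spread from 18.1 to 37.5 TPM around the untreated values, and the log2 fold change was -0.01. The AAEL008004 unigene TRINITY_DN6039_c0_g4 stood at 15.3, 11.1 and 27.0 TPM in untreated larvae, against 29.96, 30.1 and 23.2 TPM on EO at 30 mg/g (0.69, SE 0.33, adjusted p = 0.574). Its untreated replicate 3 lay within the EO range, so the groups overlapped. Another elongase (TRINITY_DN2580_c0_g1) ranged from 3.99 to 11.2 TPM over all libraries, with every diet overlapping the untreated range.

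An elongase 7-like unigene (TRINITY_DN8883_c0_g1) stood at 2.60, 0.67 and 1.20 TPM in untreated larvae. On EO at 30 mg/g it stood at 3.64, 2.80 and 3.76 TPM, all above untreated (log2 fold change 0.89, SE 0.34, adjusted p = 0.505). On D-camphor at 41 mg/g it stood at 1.92, 4.16 and 4.51 TPM, with the lowest value inside the untreated range (0.88, SE 0.34, adjusted p = 0.705). The low-dose diets gave values of 1.08 to 3.49 TPM on EO and 2.06 to 3.15 TPM on D-camphor.

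**Figure D2:**
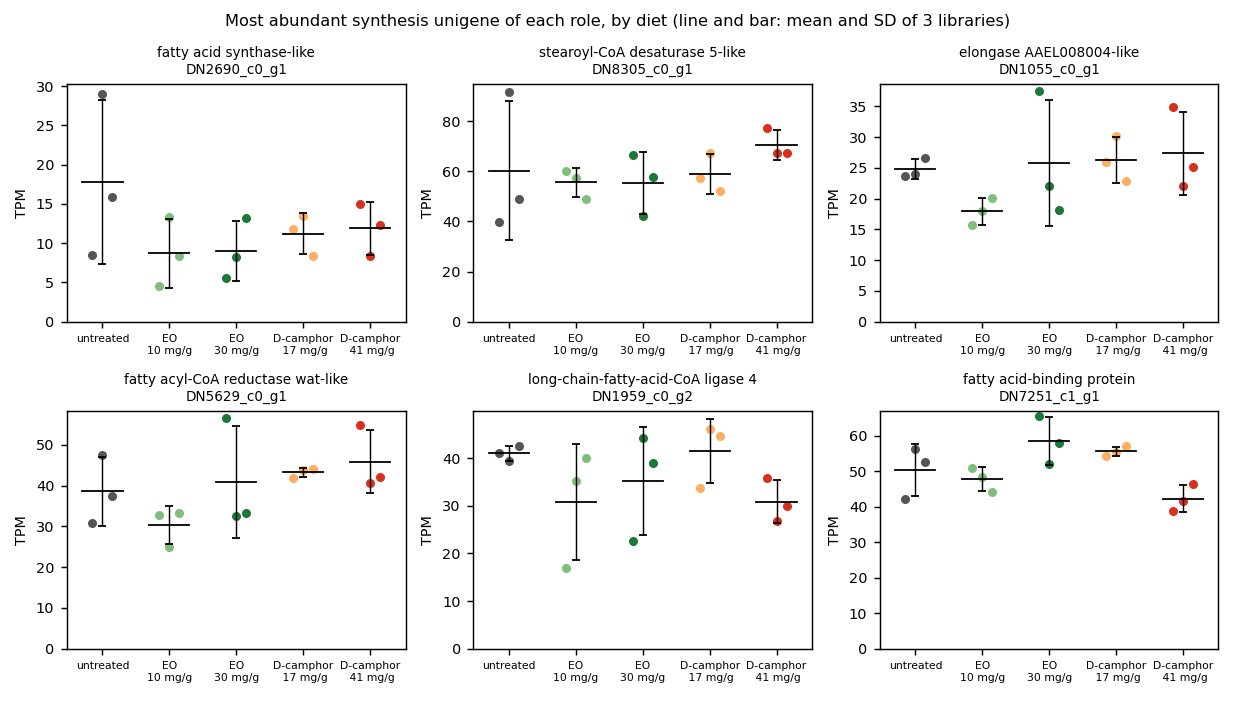
TPM (y axis) of the most abundant unigene of each synthesis role in the 5 diets (x axis), 1 point per library, with the mean as a line and the SD of 3 libraries as a bar. Untreated replicate 2 is the highest point for the fatty acid synthase (29.0 TPM) and the desaturase (91.8 TPM), and the fatty acid-binding protein is lowest on D-camphor at 41 mg/g.

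The most abundant synthesis unigene of all was a stearoyl-CoA desaturase 5-like one (TRINITY_DN8305_c0_g1), of the family that places the first double bond in a saturated chain. It stood at 39.95, 91.8 and 49.2 TPM in untreated larvae, 60.3, 57.4 and 49.1 on EO at 10 mg/g, 66.7, 42.1 and 57.6 on EO at 30 mg/g, 57.3, 67.5 and 52.0 on D-camphor at 17 mg/g, and 77.5, 67.2 and 67.3 on D-camphor at 41 mg/g. The untreated libraries alone spanned the whole range of the series. The log2 fold change was between -0.05 and 0.31 on the 4 diets.

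The other tested desaturase (TRINITY_DN34433_c0_g1) varied widely between libraries of 1 diet. It stood at 1.92, 30.6 and 25.9 TPM in untreated larvae, 1.59, 9.29 and 1.85 on EO at 10 mg/g, 1.83, 1.25 and 3.89 on EO at 30 mg/g, 1.73, 12.5 and 2.66 on D-camphor at 17 mg/g, and 20.0, 10.3 and 2.98 on D-camphor at 41 mg/g. In 6 libraries it lay between 9.29 and 30.6 TPM and in the other 9 between 1.25 and 3.89 TPM, and 4 of the 5 diets had libraries in both ranges. Its log2 fold change on EO at 30 mg/g was -2.11 (SE 0.95, 95% interval -4.18 to -0.03, adjusted p = 0.563), with overlapping groups. The remaining 3 desaturases were matched outside beetles and stayed under 1 TPM, among them TRINITY_DN18893_c0_g2 at 0.02 to 0.85 TPM.

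A fatty acyl-CoA reductase with the CG5065 description (TRINITY_DN86_c0_g1), looked at after its values were seen, was highest in the same 6 libraries, at 4.48 to 6.66 TPM against 1.41 to 2.47 TPM in the other 9. A low unigene with the description acyl-CoA Delta(11, cut short in the table and so outside the word rule (TRINITY_DN9396_c0_g1), showed the same split, at 0.62 to 4.78 TPM against 0 to 0.05 TPM. Some members too low to test, also looked at after their values were seen, showed it as well. How many of all unigenes too low to test showed it was not computed. The reductase TRINITY_DN9229_c0_g1 stood at 0.96 to 3.49 TPM against 0.08 to 0.54 TPM. The gastric lipase-like TRINITY_DN19352_c0_g1 stood at 1.19 to 1.68 TPM against 0.19 to 0.75 TPM. The ligase 5 unigene TRINITY_DN9532_c0_g3 stood at 1.11 to 2.03 TPM against 0 to 1.0 TPM. Of all 12510 tested unigenes, 197 (1.57%) were highest in these 6 libraries, 42 of them with a gap of at least 2-fold. The 7 haemocyte marker unigenes summed to 312 to 497 TPM in these 6 libraries and 205 to 333 TPM in the other 9, ranges that overlap. One of these markers, the peroxidasin-like TRINITY_DN3052_c0_g1, was among the 42, so the sum is not independent of the split. Muscle markers summed to 11019 to 16762 TPM in the 6 and 11196 to 15813 TPM in the other 9. The cuticle, fat body and midgut sums overlapped as well. The part of these tissues in the split was not tested. The unigenes with a description whose log2 values were closest to those of the desaturase over the 15 libraries were an uncharacterized protein (TRINITY_DN2506_c0_g1), a titin-like one (TRINITY_DN2656_c0_g1) and a phospholipase A1 member A-like one (TRINITY_DN40216_c0_g1), each with a Pearson correlation of 0.98. The correlations are over the same libraries and are given as a description.

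Among the fatty acyl-CoA reductases, the most abundant was a wat-like unigene (TRINITY_DN5629_c0_g1), named after a Drosophila reductase needed to clear liquid from the tracheae. It ranged from 30.7 to 47.5 TPM in untreated larvae, 25.0 to 33.4 on EO at 10 mg/g, 32.4 to 56.6 on EO at 30 mg/g, 41.9 to 44.1 on D-camphor at 17 mg/g and 40.7 to 54.8 on D-camphor at 41 mg/g. All 4 diets overlapped the untreated range. The CG8306 unigene (TRINITY_DN864_c0_g1) was steadier, between 12.8 and 22.1 TPM in all libraries, with both of these extremes in untreated larvae. The wat-like unigene TRINITY_DN7697_c0_g1 ranged from 4.18 to 9.72 TPM, with log2 fold changes of -0.25 to 0.08.

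The wat-like reductase TRINITY_DN4232_c0_g1 stood at 4.63, 6.62 and 5.10 TPM in untreated larvae, against 4.03, 4.07 and 3.70 TPM on EO at 10 mg/g. The groups did not overlap (log2 fold change -0.38, SE 0.15, adjusted p = 0.714). The value was -0.23 with median-of-ratios scaling and -0.25 without untreated replicate 2. On the other diets it was spread from 3.78 to 6.70 TPM, across the untreated range.

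A second reductase with the CG5065 description (TRINITY_DN11696_c0_g1) had the largest log2 fold change of the tested synthesis unigenes on D-camphor at 41 mg/g. It stood at 1.11, 1.32 and 1.47 TPM in untreated larvae, against 3.03, 12.5 and 5.99 TPM on D-camphor at 41 mg/g. It stood at 3.53, 1.15 and 1.41 on EO at 10 mg/g, 7.31, 1.73 and 1.56 on EO at 30 mg/g, and 2.24, 1.24 and 1.82 on D-camphor at 17 mg/g. On D-camphor at 41 mg/g and EO at 30 mg/g all 3 libraries lay above all untreated ones, and the highest value on each of these diets was in a library with a high cuticle protein sum. The log2 fold change was 1.66 on D-camphor at 41 mg/g (SE 0.49, 95% interval 0.60 to 2.72, adjusted p = 0.462) and 0.75 on EO at 30 mg/g (SE 0.49, adjusted p = 0.640).

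The 5 libraries with over 3 TPM of this reductase had cuticle protein sums of 2766 to 33411 TPM, and the other libraries 343 to 4896 TPM. By diet the cuticle sum ran from 361 to 859 TPM in untreated larvae, 343 to 33411 on EO at 10 mg/g, 996 to 17555 on EO at 30 mg/g, 1036 to 4896 on D-camphor at 17 mg/g and 2766 to 21692 on D-camphor at 41 mg/g. Among the 53 cuticle unigenes, 41 had a mean of at least 1 TPM. Without the 3 libraries that stood apart, the log2 fold change was 1.21 on D-camphor at 41 mg/g (limma adjusted p = 0.221) and 0.20 on EO at 30 mg/g (adjusted p = 0.980), and with array quality weights the latter was 0.49. The part of the cuticle-rich RNA in these values was not tested. A pupal cuticle protein 20-like unigene (TRINITY_DN16123_c0_g1) was among the 3 described unigenes closest to the reductase over the 15 libraries (Pearson correlation 0.93).

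**Figure D3:**
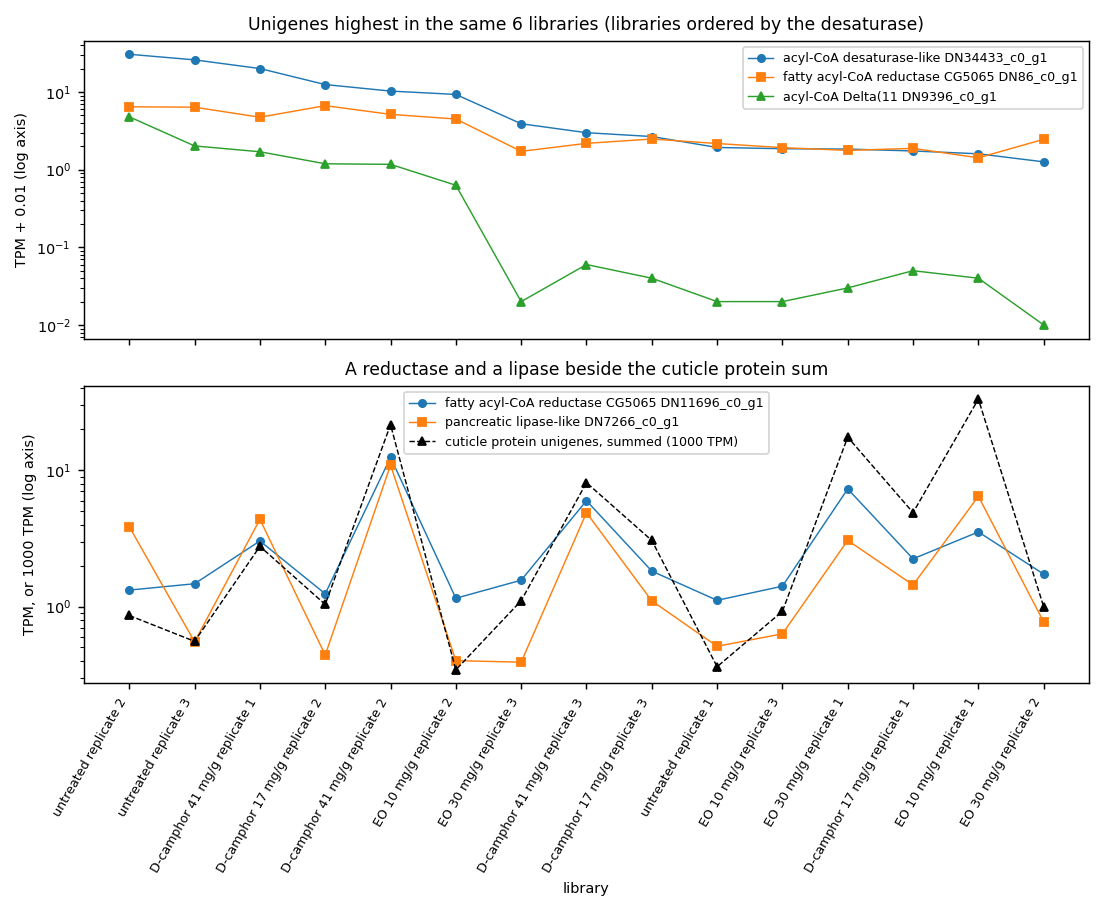
Values by library (x axis, ordered by the desaturase TRINITY_DN34433_c0_g1) on log axes. The upper plot shows TPM + 0.01 of the desaturase, a reductase and the low Delta(11 unigene, all highest in the same 6 libraries; the lower plot shows TPM of the reductase TRINITY_DN11696_c0_g1 and the lipase TRINITY_DN7266_c0_g1 beside the summed cuticle protein unigenes, scaled down to share the axis.

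Acyl-CoA synthetases activate free fatty acids by joining them to coenzyme A. The long-chain ligase 4 unigene (TRINITY_DN1959_c0_g2) stood at 41.2, 39.4 and 42.6 TPM in untreated larvae, against 36.0, 26.9 and 29.9 TPM on D-camphor at 41 mg/g, without overlap (log2 fold change -0.41, SE 0.30, adjusted p = 0.991). Its 3 lowest values were in the cuticle-rich libraries. These were replicate 1 of EO at 10 mg/g (16.95 TPM) and at 30 mg/g (22.5 TPM), and replicate 2 of D-camphor at 41 mg/g (26.9 TPM). Without the last of these, the log2 fold change on D-camphor at 41 mg/g was -0.31. The part of the cuticle-rich RNA in this value was not tested. The unigene lay between 33.8 and 46.2 TPM in the other libraries of the EO diets and of D-camphor at 17 mg/g. The ligase 5 unigene (TRINITY_DN9532_c0_g1) stood at 14.4, 13.8 and 13.97 TPM in untreated larvae, against 15.6, 18.8 and 15.9 TPM on D-camphor at 17 mg/g, all above untreated (0.23, SE 0.18, adjusted p = 0.959; 0.15 without D-camphor 17 mg/g replicate 2). The mitochondrial family member 2-like unigene (TRINITY_DN1815_c0_g2) was lower on D-camphor at 41 mg/g in all 3 libraries, at 2.95 to 4.37 TPM against 4.38 to 5.45 TPM in untreated larvae (-0.32, SE 0.17, adjusted p = 0.918; -0.18 without D-camphor 41 mg/g replicate 1).

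Fatty acid-binding proteins carry fatty acids through the cytosol. The tested one (TRINITY_DN7251_c1_g1) stood at 42.1, 56.2 and 52.6 TPM in untreated larvae, 50.9, 48.3 and 44.1 on EO at 10 mg/g, 65.5, 52.0 and 57.8 on EO at 30 mg/g, 54.4, 55.4 and 56.9 on D-camphor at 17 mg/g and 38.7, 41.6 and 46.2 on D-camphor at 41 mg/g. All 4 diets overlapped the untreated range, but the values at the higher dose of D-camphor lay wholly below those at the lower dose. The difference between the D-camphor doses was -0.39 on the log2 scale (SE 0.13, adjusted p = 0.363), in a comparison that called 0.0% of all unigenes, with 5 members and 9.51% of all unigenes at an unadjusted p under 0.05. The other fatty acid-binding unigenes, TRINITY_DN43404_c0_g1 and TRINITY_DN31154_c0_g1, were named for liver and heart proteins, matched to animals other than beetles, and had highest values of 1.55 and 0.69 TPM.

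A few lipases held most of the lipase RNA. A pancreatic lipase-related protein 2-like unigene (TRINITY_DN5087_c0_g1), a lipase 3-like one (TRINITY_DN2737_c0_g1) and a pancreatic triacylglycerol lipase-like one (TRINITY_DN17570_c0_g1) together took 86.8% to 91.4% of the summed lipase TPM in every library. The 3 most abundant synthesis unigenes took 35.6% to 52.0% of theirs. Summed over all 30 unigenes, lipases came to 1195 to 1335 TPM in untreated larvae, 992 to 1228 on EO at 10 mg/g, 1069 to 1212 on EO at 30 mg/g, 1028 to 1100 on D-camphor at 17 mg/g and 1003 to 1078 on D-camphor at 41 mg/g. Synthesis unigenes summed to 293 to 436 TPM in untreated larvae, against 277 to 402 TPM on the 4 diets.

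The pancreatic type is a family of secreted or cell-surface lipases that includes the fat-digesting enzyme of the vertebrate pancreas. Its most abundant unigene, TRINITY_DN5087_c0_g1, stood at 510.1, 474 and 538 TPM in untreated larvae, 487, 473 and 474 on EO at 10 mg/g, and 577, 488 and 389 on EO at 30 mg/g. On D-camphor it stood at 415, 319 and 414 TPM at 17 mg/g and 334, 447 and 363 TPM at 41 mg/g. All 6 D-camphor libraries lay below all 3 untreated ones, and each EO diet overlapped the untreated range.

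The log2 fold change of TRINITY_DN5087_c0_g1 was -0.42 (SE 0.17, 95% interval -0.77 to -0.06, limma adjusted p = 0.699) on D-camphor at 17 mg/g and -0.42 (SE 0.17, 95% interval -0.78 to -0.06, adjusted p = 0.738) at 41 mg/g. Neither passed the test. The mean of both EO diets was higher than that of both D-camphor diets by 0.33 on the log2 scale (SE 0.12, adjusted p = 0.440). Midgut marker sums were 63266 to 82214 TPM in untreated larvae, 61186 to 68921 TPM on D-camphor at 17 mg/g and 65301 to 72105 TPM at 41 mg/g, and their part in this difference was not tested.

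The pancreatic triacylglycerol lipase-like unigene TRINITY_DN17570_c0_g1 stood at 213, 152 and 149 TPM in untreated larvae, 121, 188 and 187 on EO at 10 mg/g, 148, 141 and 149 on EO at 30 mg/g, 153, 155 and 141 on D-camphor at 17 mg/g, and 119, 100.1 and 114 on D-camphor at 41 mg/g. The D-camphor 41 mg/g libraries lay below every other library of the series. The log2 fold change there was -0.61 (SE 0.18, 95% interval -0.999 to -0.22, adjusted p = 0.472). Between the D-camphor doses the difference was -0.43 (SE 0.18, adjusted p = 0.480).

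The isoform X2 unigene TRINITY_DN5789_c0_g3, of the same type, stood at 2.09, 2.69 and 2.09 TPM in untreated larvae, 1.55, 1.85 and 2.06 on D-camphor at 17 mg/g, and 1.73, 0.61 and 0.47 on D-camphor at 41 mg/g. Both D-camphor diets lay below untreated larvae, while the EO libraries at 1.72 to 3.64 TPM spanned the untreated values. The log2 fold change was -0.82 on D-camphor at 41 mg/g (SE 0.24, 95% interval -1.34 to -0.29, adjusted p = 0.462) and -0.22 at 17 mg/g (adjusted p = 0.984). The first was -1.39 with a pseudocount of 0.1, and the second was -0.14 without untreated replicate 2. Its neighbour in the same assembly component, TRINITY_DN5789_c0_g1, was at 5.65, 4.19 and 2.22 TPM on D-camphor at 41 mg/g and 1.94, 5.01 and 2.55 TPM in untreated larvae, with overlap.

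Summed over its 12 unigenes, the pancreatic type stood at 698 to 794 TPM in untreated larvae, 676 to 727 and 611 to 790.2 TPM on the lower and higher dose of EO, and 549.5 to 641 and 525 to 613 TPM on those of D-camphor. All 6 D-camphor sums lay below the untreated ones. Without TRINITY_DN5087_c0_g1 and TRINITY_DN17570_c0_g1, the sum was 70.3 to 83.7 TPM in untreated larvae, 69.7 to 76.3 TPM on D-camphor at 17 mg/g and 65.1 to 71.7 TPM at 41 mg/g, which overlap. The next most abundant unigene, TRINITY_DN582_c0_g1, ranged from 27.6 to 40.8 TPM, with every diet overlapping the untreated values.

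**Figure D4:**
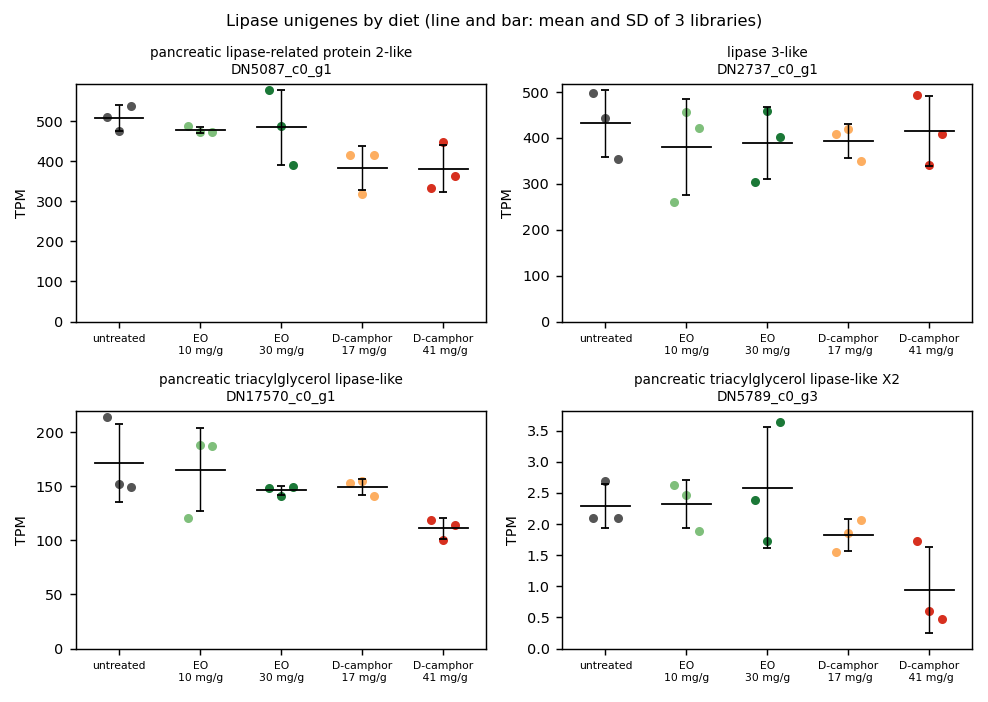
TPM (y axis) of 4 lipase unigenes in the 5 diets (x axis), 1 point per library, with the mean as a line and the SD of 3 libraries as a bar. The 6 D-camphor libraries of TRINITY_DN5087_c0_g1 lie between 319 and 447 TPM, below the untreated 474 to 538 TPM, while those of the lipase 3-like TRINITY_DN2737_c0_g1 lie inside its untreated spread but for 2.

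A pancreatic-type lipase with a low-quality description (TRINITY_DN7266_c0_g1) was high in some libraries of several diets. It stood at 0.51, 3.86 and 0.55 TPM in untreated larvae, 6.45, 0.40 and 0.63 on EO at 10 mg/g, 3.06, 0.77 and 0.39 on EO at 30 mg/g, 1.44, 0.44 and 1.10 on D-camphor at 17 mg/g and 4.37, 10.9 and 4.89 on D-camphor at 41 mg/g. Its highest value on each of the 3 diets with a cuticle-rich library was in that library, and untreated replicate 2 was high without a high cuticle sum (859 TPM). All D-camphor 41 mg/g libraries lay above untreated ones (log2 fold change 1.68, SE 0.66, 95% interval 0.24 to 3.13, adjusted p = 0.738), and the value was 1.32 (adjusted p = 0.658) without the 3 libraries that stood apart and 1.10 with array quality weights.

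A lipase member H-A-like unigene (TRINITY_DN2171_c0_g1), of the same family, stood at 22.4, 21.4 and 24.8 TPM in untreated larvae, against 19.4, 14.2 and 20.1 TPM on EO at 10 mg/g. The groups did not overlap (log2 fold change -0.35, SE 0.16, adjusted p = 0.714). The value was -0.18 with median-of-ratios scaling and -0.20 without EO 10 mg/g replicate 2. Another H-A-like unigene, TRINITY_DN7018_c0_g1, named after its values were seen, stood at 13.6 TPM in untreated replicate 3 and 1 to 4.85 TPM in the other 14 libraries.

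The gastric or lipase 3 type are acid lipases of gut and lysosome in other animals. TRINITY_DN2737_c0_g1 stood at 497, 444 and 353 TPM in untreated larvae and between 261 and 494 TPM on the 4 diets, all of which overlapped the untreated values. Its log2 fold change lay between -0.21 and -0.06. A second lipase 3-like unigene (TRINITY_DN158_c0_g1) stood at 2.99, 3.79 and 3.61 TPM in untreated larvae, against 4.54, 5.44 and 4.97 TPM on EO at 30 mg/g, without overlap (0.42, SE 0.19, adjusted p = 0.558). Between the EO doses it differed by 0.53 (SE 0.19, adjusted p = 0.942), in a comparison that called 0.00799% of all unigenes and 0 members, with 4 members and 4.97% of all unigenes at an unadjusted p under 0.05. Another (TRINITY_DN5286_c0_g1) ranged from 2.25 to 7.94 TPM with overlapping groups.

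ABHD12 enzymes hydrolyse monoacylglycerols and lysophospholipids in mammals. The unigene TRINITY_DN6048_c0_g1 varied least of the lipases and stood at 8.99, 10.04 and 9.90 TPM in untreated larvae, 7.6, 8.11 and 8.66 on EO at 10 mg/g, and 8.46, 8.14 and 8.05 on D-camphor at 41 mg/g. Both diets lay below untreated larvae, by log2 fold changes of -0.22 (SE 0.09, adjusted p = 0.714) and -0.21 (SE 0.09, adjusted p = 0.748), and the EO value was -0.06 with median-of-ratios scaling. TRINITY_DN11105_c0_g2, at 1.18 to 1.33 TPM in untreated larvae, stood at 0.62 to 1.05 TPM on EO at 10 mg/g and 0.57 to 0.95 TPM at 30 mg/g (-0.25 and -0.34, adjusted p = 0.714 and 0.577). The EO 10 mg/g value was -0.14 without its replicate 1, and so also without the 3 libraries that stood apart, and with a pseudocount of 0.1 the values were -0.46 and -0.64. The ABHD16A unigene (TRINITY_DN1403_c0_g1), a phosphatidylserine lipase in mammals, and the ABHD12 unigene TRINITY_DN5349_c0_g1 ranged from 6.14 to 9.08 and from 4.89 to 9.64 TPM with overlapping groups.

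Diacylglycerol lipases release a fatty acid from diacylglycerol and make the signal lipid 2-arachidonoylglycerol in mammals. The alpha unigene (TRINITY_DN10626_c0_g1) stood at 3.19, 3.08 and 4.26 TPM in untreated larvae, against 2.81, 2.76 and 2.66 TPM on EO at 10 mg/g, without overlap (log2 fold change -0.26, SE 0.18, adjusted p = 0.718). The value was -0.12 with median-of-ratios scaling and -0.14 without untreated replicate 3. The beta-like unigene (TRINITY_DN8880_c0_g1) lay between 0.53 and 1.78 TPM, and TRINITY_DN11325_c0_g2 reached 0.61 TPM. The lipase maturation factor (TRINITY_DN1458_c1_g2) lay between 6.31 and 11.7 TPM, with overlap on every diet.

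The medians of the lists can be set beside those of all tested unigenes. On EO at 10 mg/g the median log2 fold change was -0.24 for synthesis and -0.16 for lipases, beside -0.12 for all unigenes, and 40 of the 46 members were below 0, as were 8808 of all 12510 unigenes. Median-of-ratios scaling moved the median of all unigenes by 0.14 there, and brought the synthesis median to -0.08 and the lipase median to 0.00. On EO at 30 mg/g the medians were -0.06 and -0.08, beside -0.06 for all unigenes, and both turned positive with scaling, to 0.04 and 0.02. On D-camphor at 17 mg/g they were 0.12 and -0.13 beside 0.03, and at 41 mg/g -0.05 and -0.11 beside -0.04.

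Members were also counted whose 3 libraries on a diet lay wholly on one side of the untreated ones. On EO at 10 mg/g 7 members lay below and 0 above, where 8.51% and 1.44% of all unigenes did. On EO at 30 mg/g 3 lay below and 3 above, where all unigenes gave 5.64% and 4.56%. On D-camphor at 17 mg/g 2 lay below, both lipases, and 1 above (2.75% and 8.35% of all unigenes). On D-camphor at 41 mg/g 6 lay below and 2 above (6.54% and 3.41% of all unigenes), and 4 of the 6 were lipases.

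On the log2 scale the SD between the 5 group means exceeded the SD within groups for some members. These were 4 of 26 synthesis unigenes and 5 of 20 lipases, beside 1483 of all 12510 unigenes. A mean of 3 libraries varies less than 1 library even without a diet effect. These counts thus cannot show whether most of the spread lay within diets. The median SD within groups was 0.34 for synthesis, 0.23 for lipases and 0.26 for all unigenes. The ratio of highest to lowest library had a median of 2.80 for synthesis and 2.30 for lipases. Among synthesis unigenes 7 of 26 were highest in untreated replicate 2. In EO 10 mg/g replicate 1, the library with the highest cuticle sum, 7 synthesis unigenes and 7 lipases were lowest. The shares of all unigenes with their extremes in these libraries were not computed, so these counts cannot be read as particular to the members. EO 10 mg/g replicate 1 had the lowest median-of-ratios size factor of all libraries, 0.88. It also had the lowest sum of the 13 fat body markers, at 1297 TPM against 2575 to 7213 TPM in the others. Of these 13 unigenes, 4 had a mean of at least 1 TPM. Its midgut marker sum, 60258 TPM, was lowest by a small margin, with 61186 to 82214 TPM in the others. The part of these sums in the low values was not tested. An F test for any difference among the 5 diets called 0 members and 0.0719% of all unigenes, with 5 members and 8.83% of all unigenes at an unadjusted p under 0.05. Its lowest adjusted p among the members was 0.436.

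**Figure D5:**
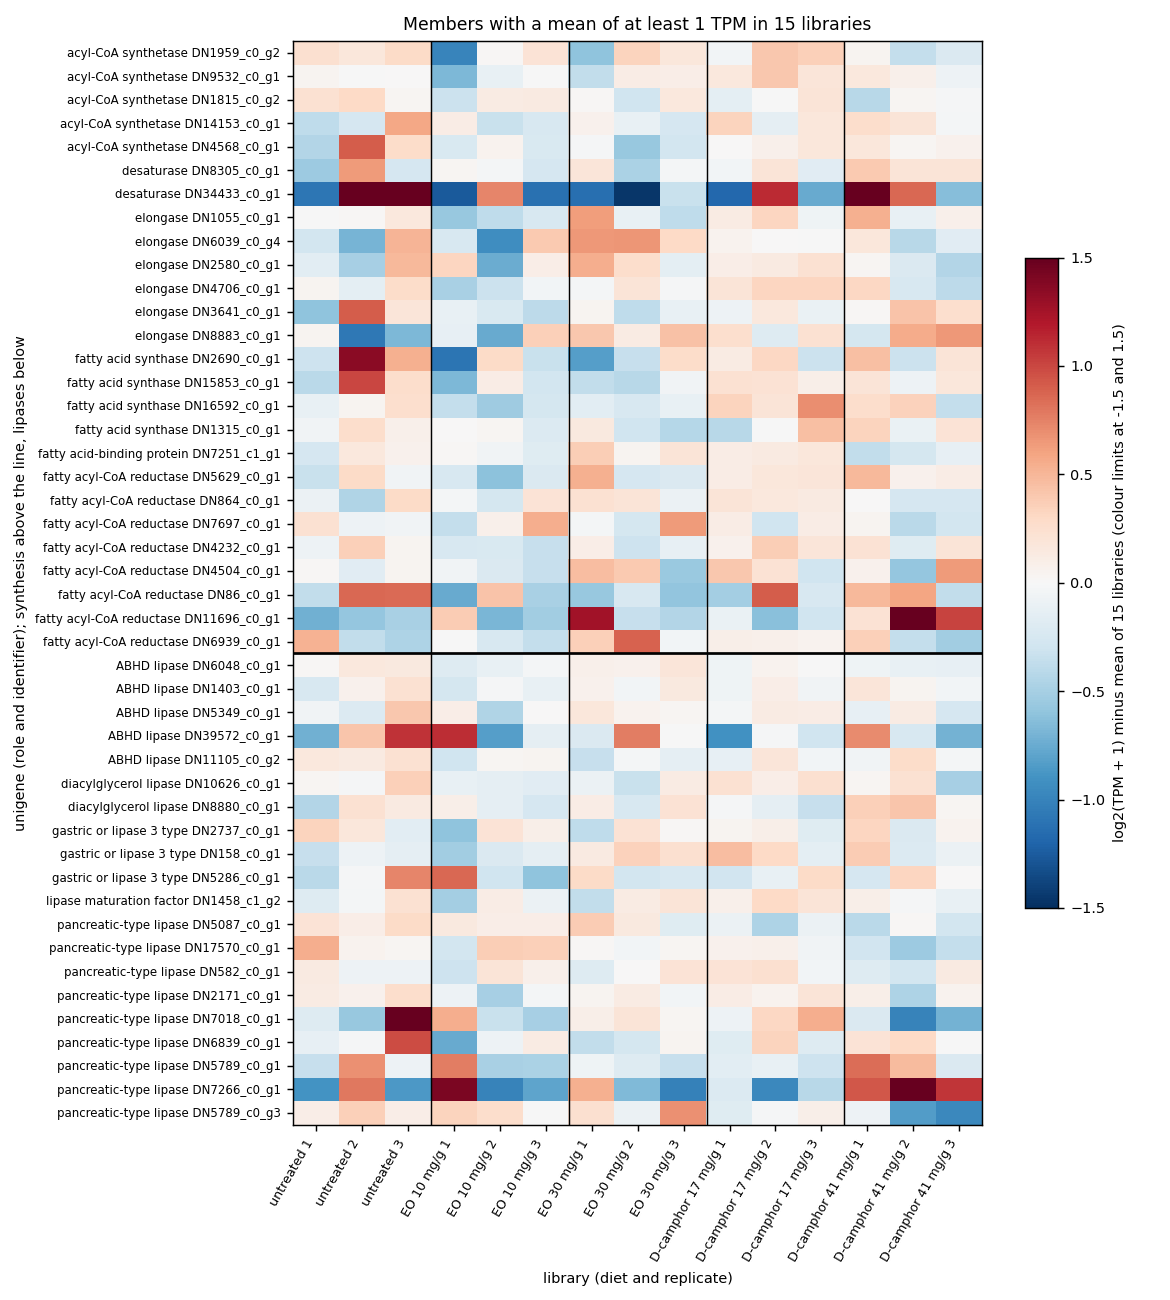
Deviation of log2(TPM + 1) from the mean of 15 libraries for the 46 tested unigenes (y axis, with role), by library (x axis, grouped by diet), with synthesis above the thick line and lipases below. Single libraries stand out within a diet, such as untreated replicate 2 for the fatty acid synthases.

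Other enzymes of fat metabolism, from a list of further pathway words, gave the same count. These words matched 45 unigenes, of which 27 were tested. In each of the 8 comparisons limma called 0 of the 27, and at most 0.184% of all unigenes. Against untreated larvae an unadjusted p under 0.05 was found for 0 and 1 of the 27 on the lower and higher dose of EO. On those of D-camphor it was found for 3 and 1. All unigenes gave 6.31%, 8.8%, 6.24% and 6.24% in the same order. Acetyl-CoA carboxylase (TRINITY_DN2118_c0_g1), the committed step of fatty acid synthesis, averaged 21.0 TPM over all libraries, and ATP-citrate synthase (TRINITY_DN106_c0_g1), which supplies its acetyl-CoA, 65.5 TPM. The 3-oxoacyl-CoA reductase (TRINITY_DN13049_c0_g1) and enoyl-CoA reductase (TRINITY_DN90_c0_g1) that work with elongases averaged 55.9 and 29.7 TPM. The truncated Delta(11 descriptions TRINITY_DN3924_c0_g1 and TRINITY_DN623_c0_g1 averaged 60.8 and 57.9 TPM, beside 60.2 TPM for the most abundant desaturase.

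Some of these genes had groups that did not overlap without passing the test. Acetyl-CoA carboxylase ranged from 20.3 to 24.1 TPM in untreated larvae. It lay above them on D-camphor at 17 mg/g, at 25.3 to 27.4 TPM (log2 fold change 0.25, limma adjusted p = 0.976). At 41 mg/g it lay just below them, at 19.97 to 20.04 TPM (-0.14, adjusted p = 0.998). The acyl-CoA-binding protein (TRINITY_DN27876_c0_g1), which carries activated fatty acids, ranged from 401.6 to 421.8 TPM in untreated larvae and from 276 to 336 TPM on D-camphor at 41 mg/g (log2 fold change -0.47, SE 0.16, limma adjusted p = 0.550). It lay just below untreated larvae on D-camphor at 17 mg/g, at 359.7 to 400.7 TPM (-0.14, adjusted p = 0.989), and above them on EO at 30 mg/g, at 426 to 509 TPM (0.15, adjusted p = 0.780). The short/branched chain acyl-CoA dehydrogenase (TRINITY_DN5820_c0_g2), an enzyme of mitochondrial breakdown of branched acyl chains, ranged from 21.7 to 31.5 TPM in untreated larvae, against 33.7 to 48.5 TPM on D-camphor at 17 mg/g (0.55, SE 0.16, adjusted p = 0.436), and from 24.1 to 26.2 TPM at 41 mg/g. The lipid droplet surface protein TRINITY_DN20463_c0_g1 ranged from 136 to 166 TPM on D-camphor at 17 mg/g and 75.9 to 121 TPM at 41 mg/g, across the untreated 84.4 to 141 TPM. Between the D-camphor doses 9 of the 27 were lower at the higher dose in all libraries, where 15.8% of all unigenes were. Of the 46 tested synthesis and lipase members, 6 were.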

How the data were processed

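The deposited values are TPM from the authors, 1 column per library and 2 decimals, for unigenes named as an assembly names them, with a protein description for 18488. Per the labels' protocols RNA was extracted with TRIzol and libraries made with NEBNext reagents. Names of the assembler, aligner and quantifier were not given in the sources used here. Columns sum to 999999.16 to 1000001.21, and 0 columns of samples were left unused. Columns were matched to libraries through the titles, by letter and replicate.

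Members were picked by description words and sorted into roles after the descriptions were seen. The members and lists were chosen with earlier results of these data known. TPM became log2(TPM + 1), so fold changes of low unigenes are understated. Unigenes that averaged 1 TPM or more entered a limma 3.58.1 fit (R 4.3.3, 1 mean per diet, variance trend, all 15 libraries, 10 residual degrees of freedom), with two-sided tests and Benjamini-Hochberg adjustment over 12510 unigenes in each comparison. The comparisons were each diet against untreated larvae, the doses of each additive, EO against D-camphor, and any difference. The fit was tested on simulated data.

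Named unigenes are the 4 members with the largest difference each way, for synthesis and lipases, whose groups do not overlap on a diet, the 3 most abundant of each role, at most 3 described unigenes closest to a named pattern, and called or abundant pathway genes. Others are marked. Other settings tried were array quality weights, a replicate block, a pseudocount of 0.1, scaling by median of ratios, a minimum mean of 5 TPM or none, a model of only the groups compared, and each library left out. Leaving out 3 libraries together was added after the data were seen.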

Additional observations from a re-analysis of the deposited data

How the results depend on the processing

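The count of members called was 0 in the 183 refits and comparisons run under 23 other settings. The 537 values of members named for groups that did not overlap kept their direction under them. Such groups keep their direction when libraries are left out or weighted, so only scaling could have reversed it. The size of these values did not always hold. Of them 25, for 16 of the 24 named ones, lay over 1.5 times away from the reported one, 20 of them closer to 0. Among the 20, 6 came with median-of-ratios scaling, which on EO at 10 mg/g left TRINITY_DN6048_c0_g1 at -0.06. On EO at 30 mg/g TRINITY_DN17570_c0_g1 went from -0.21 to -0.10 with this scaling and to -0.04 without untreated replicate 1, and the cause was not tested. The 5 values farther from 0 all came with a pseudocount of 0.1, by construction. The lowest adjusted p of any member was 0.0911, for the fatty acid-binding protein TRINITY_DN7251_c1_g1 between the D-camphor doses with array quality weights (log2 difference -0.40). Leaving out 1 library in turn moved the log2 fold change of the reductase TRINITY_DN11696_c0_g1 on EO at 30 mg/g from 0.75 to as little as 0.20, without EO 30 mg/g replicate 1. With the replicate block 0 members were called. Correlations between same-numbered libraries had a median of 0.02 over 30 pairs (-0.34 to 0.56). The 60 pairs with different numbers also had a median of 0.02 (-0.40 to 0.44). These values cannot show whether samples were handled in numbered sets. Median log2 fold changes of the lists moved by more than their spread in 24 values and not in the other 298. Scaling turned the median of lipases between both EO and both D-camphor diets from -0.08 to 0.06. TPM holds no counts, so depth limits could not be computed.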
